A study of Mus musculus with 6 samples.

Results

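The genes described here are the nuclear genes of oxidative phosphorylation, 94 of the 47643 genes in a count table of sorted mouse NKT1 cells. They were chosen by name: every symbol beginning with Atp5, with Cox4 to Cox8, with Nduf or with Uqcr was taken, and Cycs and the genes Sdha to Sdhd were added. Symbols ending in -ps and a number were left out, which removed 3 of 97 matching rows. Of the 94 genes, 75 encode structural proteins of the respiratory chain or of ATP synthase: 36 in complex I, 4 in complex II, 8 in complex III, 11 in complex IV, 15 in complex V, and cytochrome c. A further 7 are the complex I assembly factors Ndufaf1 to Ndufaf7, 8 are tissue-specific or rarely used isoforms, and the other 4 are Cox7a2l, Atp5s, Atp5sl and Atp5l2-ps. Ndufa4, long listed with complex I, was counted with complex IV.

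The study compared CD4-positive with CD4-negative NKT1 cells, with 3 libraries in each group. Invariant natural killer T (iNKT) cells carry a nearly fixed T cell receptor for lipids bound to CD1d, and NKT1 cells are their T-bet-expressing, interferon-producing subset. Both groups were sorted by flow cytometry from the thymus of WT BALB/c mice and carry no introduced allele or treatment, and they differ by label in the coreceptor CD4 alone. The labels used here give neither the age of the mice nor whether replicates came from separate animals or from pools, so p-values rest on the spread among libraries, part of which may be technical.

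Oxidative phosphorylation takes place at the inner mitochondrial membrane. Complexes I and II feed electrons from NADH and succinate to ubiquinone, complex III passes them to cytochrome c, and complex IV passes them to oxygen, while the proton gradient that complexes I, III and IV build drives ATP synthesis by complex V. Most subunits are encoded in the nucleus, and the mitochondrial genome encodes the remaining core subunits of complexes I, III, IV and V but none of complex II. Resting and effector T cells are known to differ in how far they rely on this pathway.

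Library totals ran from 49314314 to 51081385 counts for CD4-positive cells and from 40480463 to 53145848 counts for CD4-negative cells. Levels are given as CPM, counts scaled to library size by the TMM method, and 1 count was worth 0.0185 to 0.0261 CPM. Cd4 stood at 401 to 508 CPM in CD4-positive libraries and 10.9 to 41.2 CPM in CD4-negative libraries. The NKT1 list of Tbx21, Il2rb, Zbtb16, Cd3e, Trac, Xcl1 and Klrb1c was detected in full, summing to 3291 to 4175 CPM in CD4-positive libraries and 3242 to 3671 CPM in CD4-negative libraries. Each list of 5 markers of other cells was summed likewise. B cell genes came to at most 1.47 CPM in CD4-positive libraries and 3.01 CPM in CD4-negative libraries, and stromal genes to at most 2.81 CPM in CD4-positive libraries and 4.35 CPM in CD4-negative libraries. Immature thymocyte genes came to 13.7 to 69.6 CPM in CD4-positive libraries and 16.5 to 61.8 CPM in CD4-negative libraries. Myeloid genes, nearly all of it Cst3, came to 89.7 to 138 CPM in CD4-positive libraries and 96.3 to 174 CPM in CD4-negative libraries, and erythroid genes to 276 to 367 CPM in CD4-positive libraries and 283 to 701 CPM in CD4-negative libraries. Libraries stood apart in the share of mitochondrially encoded counts: it was 1.35% in CD4-positive replicate 1 and 1.33% in CD4-negative replicate 3, against 3.51% to 5.19% in the other 4 libraries. CD4-negative replicate 3 also had counts for the fewest genes, 13787, and the highest erythroid sum, whose part in the results was not tested. Over 4 Y-linked genes, CD4-positive replicate 1 had 466 counts and CD4-negative replicate 1 had 523, against at most 1 in the others. Below, the 3 values of a group stand in the order of replicates 1, 2 and 3.

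All 75 structural genes were detected in every library. Of the 94 members, 85 passed the filter on low counts, and together the 94 took 0.763% to 0.971% of all counts in CD4-positive libraries and 0.780% to 1.13% in CD4-negative libraries. Levels between genes are compared as CPM per kilobase of the principal transcript. On that scale the median structural gene stood at 189 for complex V, 135 for complex IV, 104 for complex III, 65.0 for complex II and 60.2 for complex I, averaged over all 6 libraries, while cytochrome c stood at 40.5. Complex II ran from 18.2 for Sdhc, a membrane anchor, to 101 for Sdha, the flavoprotein that oxidises succinate. Such ranks depend on the transcript taken for length, which had 3171 bases for Sdhc and 3123 for Cycs. In CPM over all 6 libraries Sdhc averaged 57.6, near Sdhd at 74.0 and Sdhb at 79.9. Uqcrh, the hinge protein of complex III, was the highest structural gene at 495 ± 136 CPM per kilobase in CD4-positive and 580.3 ± 275 CPM per kilobase in CD4-negative cells (SD, n = 3 each). The catalytic F1 beta subunit Atp5b stood at 417 per kilobase. The members lie on 19 chromosomes, at most 10 of them on the same chromosome and 3 on the X. Of the 94, 10 overlap another gene on their strand in GENCODE M21 and 31 a gene on the opposite strand. Library preparation was stranded, but the strand setting of the counting is not given in the sources used here. Whether reads of opposite-strand pairs were kept apart is therefore unknown, and strand does not separate reads of same-strand pairs. Counts were fractional in at least 1 library for 28 members. The 7 complex I assembly factors were low, between 3.001 for Ndufaf6 and 12.8 for Ndufaf1.

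**Figure D1:**
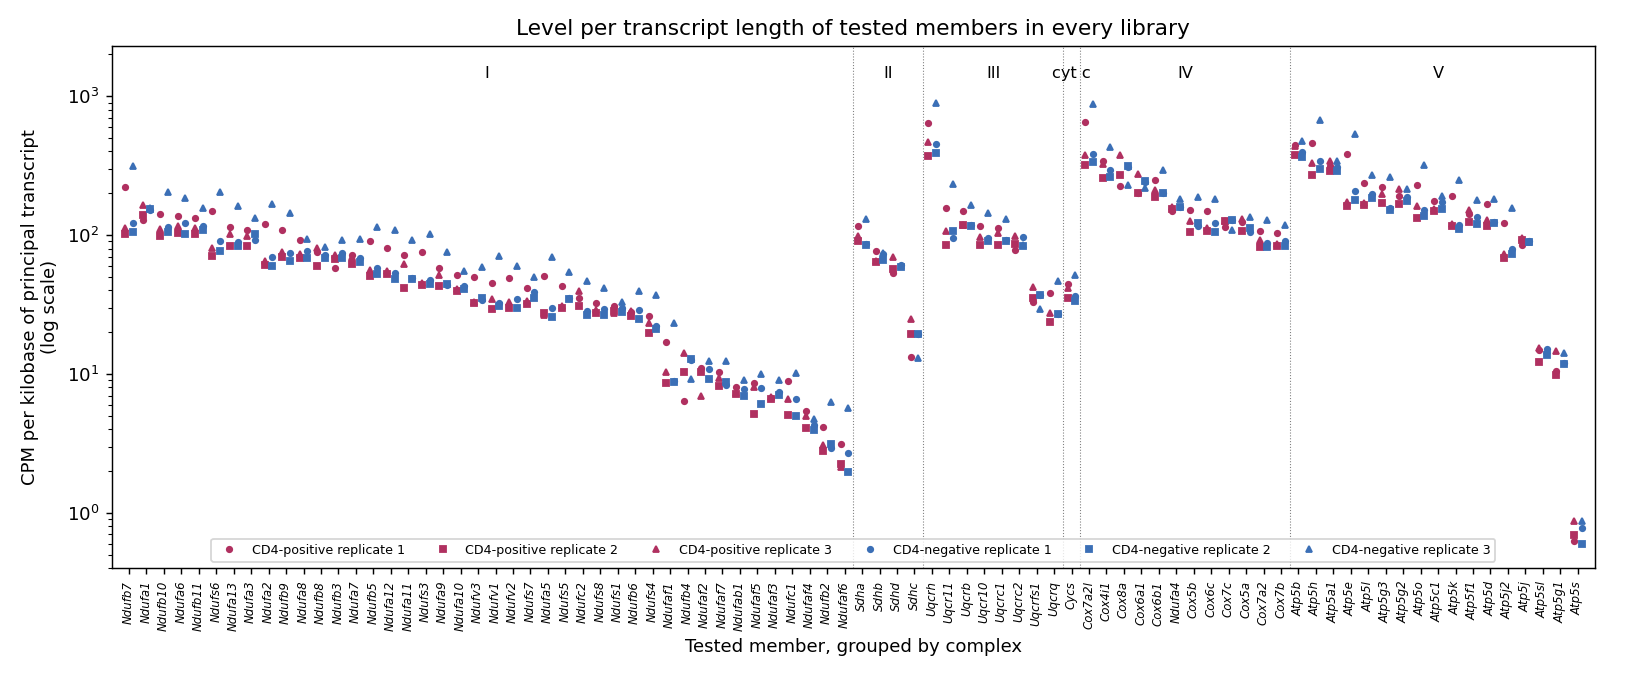
Level of 84 of the 85 tested members in every library, as CPM per kilobase of the principal transcript on a log axis, grouped by complex (I to V and cytochrome c, cyt c) and ordered by mean level; red symbols are CD4-positive and blue symbols CD4-negative libraries. The symbols of both colours lie together for most genes, with the blue triangle of CD4-negative replicate 3 the highest in 69 of the 84 shown.

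No member passed the test between CD4-positive and CD4-negative cells. By the quasi-likelihood test of edgeR with Benjamini-Hochberg adjustment over all 12760 tested genes, 0 of the 85 tested members passed an adjusted p of 0.05, where 0.212% of all tested genes did (27 genes). Without adjustment, 0 of 85 had a p under 0.05 against 4.44% of all genes, and the smallest was 0.194, for Ndufb3, an accessory subunit of complex I. The adjusted p was at least 0.999 for every member. DESeq2 and limma-voom also called 0 members, and called 162 of 19410 and 29 of 12760 tested genes. The groups did not overlap for 1 of the 85 members, against 9.41% of all tested genes: 0 were higher (4.84% of all genes) and 1 was lower (4.57%).

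Estimated log2 differences (CD4-positive minus CD4-negative) ran from -0.46 for Ndufaf6 to 0.15 for Sdhc and Ndufaf4. Their median was -0.13, against -0.0058 for all tested genes, and 73 of 85 lay below 0, against 51.1% of all genes. That small shift moved with single libraries: without CD4-negative replicate 3 the median was 0.11 and 19 of 86 tested members lay below 0, and without CD4-positive replicate 2 it was -0.031 and 53 of 86 lay below 0. Without both low-mitochondrial libraries the median was -0.015, with 48 of 86 below 0. The 95% intervals reached a median of 0.54 log2 units to either side, and 67 of 85 lay wholly within 1 log2 unit of 0, so a 2-fold difference in either direction lies outside the interval for those genes. For the other 18 the interval includes a 2-fold lower level in CD4-positive cells, and for 0 of 85 it includes a 2-fold higher one. In bulk libraries such as these, fewer cells that express a gene and less of its RNA per cell cannot be told apart.

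**Figure D2:**
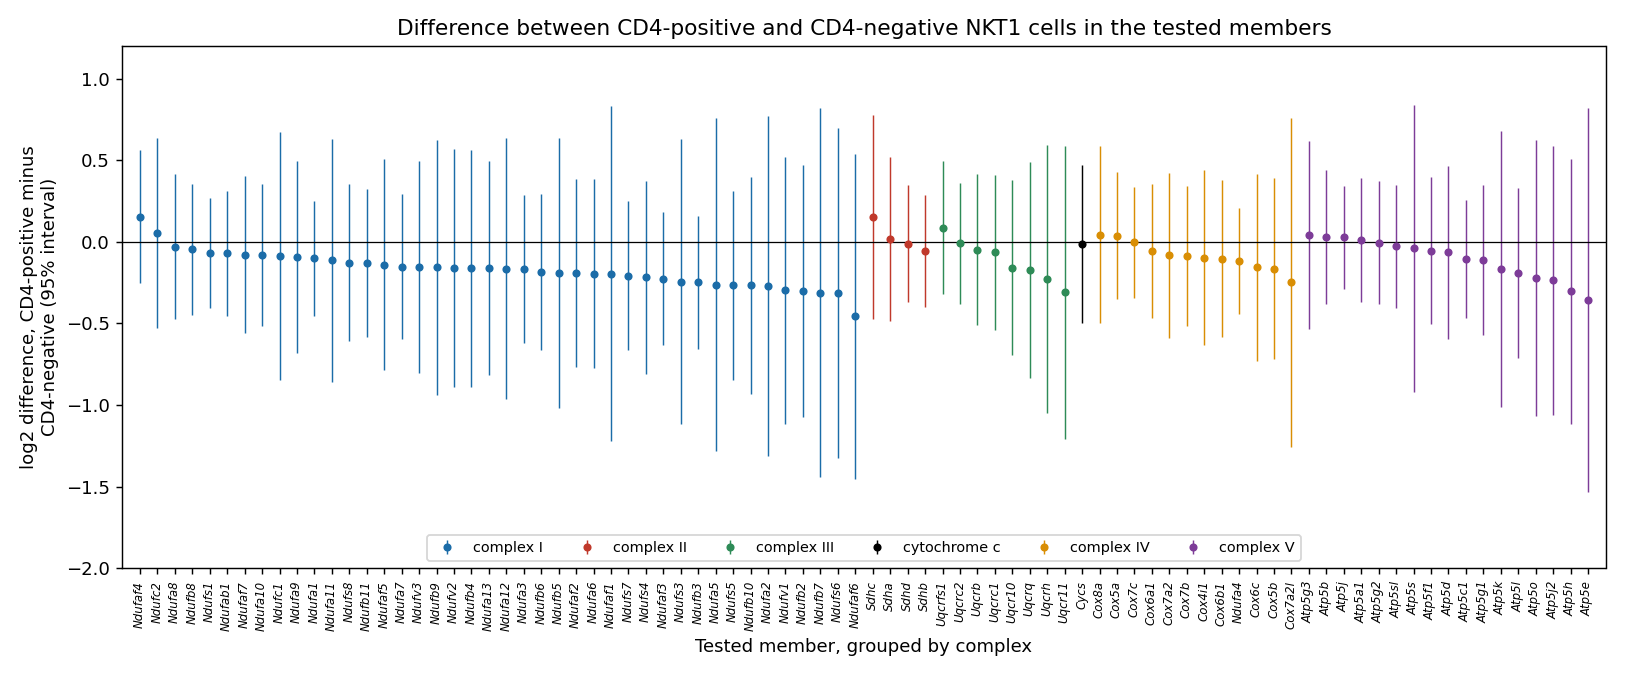
Log2 difference (CD4-positive minus CD4-negative) of 84 of the 85 tested members, each with its 95% interval from edgeR, coloured by complex. Every interval shown crosses 0, and 73 of the 84 points lie below it.

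In complex I, 34 of 36 structural genes lay below 0, with a median of -0.16 and none past the test. Among the core subunits, Ndufv1, the flavoprotein that takes electrons from NADH, had 74.6, 48.9 and 58.1 CPM in CD4-positive cells and 54.2, 50.9 and 118 CPM in CD4-negative cells. The high value belonged to CD4-negative replicate 3, and the groups overlapped. Ndufv2, its iron-sulfur partner, had 82.9, 51.1 and 55.8 CPM in CD4-positive against 58.6, 50.8 and 103 CPM in CD4-negative cells, with replicate 1 the highest of the CD4-positive group. Ndufs1, the large iron-sulfur protein of the electron-input arm, was steadier, at 81.9, 75.4 and 72.8 CPM in CD4-positive cells against 79.4, 74.2 and 87.9 CPM in CD4-negative cells. Ndufs3, another core subunit, had 78.7, 45.8 and 47.4 CPM in CD4-positive cells against 49.6, 46.8 and 107 CPM in CD4-negative cells. The iron-sulfur subunits Ndufs7 and Ndufs8 averaged 35.2 ± 4.97 and 29.8 ± 2.58 CPM in CD4-positive cells, against 40.7 ± 7.63 and 32.6 ± 7.89 CPM in CD4-negative cells (SD, n = 3 each).

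The accessory subunits of complex I varied more. Ndufs6 had the largest negative difference of the complex among structural genes, with 84.3, 39.9 and 45.5 CPM in CD4-positive cells and 51.8, 43.9 and 115 CPM in CD4-negative cells. Its log2 difference was -0.31 (SE 0.43), and without CD4-negative replicate 3 the estimate was 0.25. Ndufb7 had 138, 63.3 and 70.6 CPM in CD4-positive cells against 75.8, 65.1 and 197 CPM in CD4-negative cells, so that 1 library of each group was high. Ndufb4 ran the other way, with 6.17, 9.97 and 13.8 CPM in CD4-positive cells and 12.2, 12.4 and 8.90 CPM in CD4-negative cells. Here the libraries that were highest for Ndufb7 were the lowest of their groups. Ndufb4 counts were fractional in all 6 libraries, as arises where reads are shared with a similar gene, so its level is uncertain.

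The 4 genes of complex II, which also acts in the citric acid cycle, centred on 0 with a median log2 difference of 0.0030. Sdha had 338, 264 and 285 CPM in CD4-positive cells and 252, 248 and 377 CPM in CD4-negative cells, with the highest value in CD4-negative replicate 3. Sdhb, the iron-sulfur subunit, had 87.3, 73.7 and 74.3 CPM in CD4-positive cells against 83.2, 76.1 and 84.9 CPM in CD4-negative cells. Of the membrane anchors, Sdhd averaged 73.7 ± 10.1 CPM in CD4-positive cells and 74.3 ± 1.202 CPM in CD4-negative cells (SD, n = 3 each). Sdhc had 42.3, 61.5 and 78.4 CPM in CD4-positive cells and 61.4, 61.2 and 41.1 CPM in CD4-negative cells. Its positive difference of 0.15 (SE 0.27) was the largest of any tested member, and without CD4-negative replicate 3 it was -0.0100. The 2 lowest libraries were CD4-positive replicate 1 and CD4-negative replicate 3.

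For complex III, 7 of 8 genes lay below 0, with a median of -0.11. The core proteins Uqcrc1 and Uqcrc2 averaged 166 ± 22.3 and 167 ± 19.8 CPM in CD4-positive cells and 173 ± 38.3 and 168 ± 14.99 CPM in CD4-negative cells (SD, n = 3 each). Uqcrfs1, the Rieske iron-sulfur protein, had 44.8, 47.9 and 57.3 CPM in CD4-positive cells against 50.8, 50.4 and 39.96 CPM in CD4-negative cells, and was the only complex III gene with a log2 difference above 0. Its opposite was Uqcr11, a small accessory subunit, at 70.2, 37.9 and 47.6 CPM in CD4-positive cells and 42.4, 47.7 and 103 CPM in CD4-negative cells. The log2 differences of these genes were 0.087 (SE 0.17) and -0.31 (SE 0.38). Cycs, the mobile electron carrier between complexes III and IV that is also released in apoptosis, had 138, 110.3 and 129.6 CPM in CD4-positive cells and 114, 105 and 162 CPM in CD4-negative cells, which overlapped.

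Transcripts of complex IV came from its broadly expressed isoforms. Cox4i1 had 259, 196 and 250.3 CPM in CD4-positive cells and 223, 201 and 331 CPM in CD4-negative cells, and made up 99.98% of the subunit 4 signal per kilobase. Cox4i2, its lung isoform, had 13 counts in CD4-positive replicate 3 and 0 in the other libraries. Subunit 6a came from Cox6a1 at 115, 115 and 157 CPM in CD4-positive cells against 137, 141 and 125 CPM in CD4-negative cells, while the heart and muscle isoform Cox6a2 had 20 counts over the CD4-positive libraries and 2 over the CD4-negative libraries. Subunit 6b came from Cox6b1 at 133 ± 18.8 CPM in CD4-positive cells and 143 ± 32.4 CPM in CD4-negative cells (SD, n = 3 each), with 16 counts of its testis isoform Cox6b2 over the CD4-positive libraries and 9 over the CD4-negative libraries. For subunit 8, Cox8a had 125, 148 and 208 CPM in CD4-positive cells and 169, 172 and 126 CPM in CD4-negative cells. Cox8b, Cox8c and Cox7b2 had 0 counts in all 6 libraries, which allows up to 0.0555 to 0.0783 CPM in a library by counting error alone. Ndufa4 had 91.6, 93.7 and 97.4 CPM in CD4-positive cells against 97.9, 97.3 and 111 CPM in CD4-negative cells, and its hypoxia-induced paralog Ndufa4l2 had 0 counts over the CD4-positive libraries and 8 over the CD4-negative libraries.

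Cox7a1, the heart and muscle isoform of subunit 7a, had 9, 11 and 19 counts in CD4-positive libraries and 1, 4 and 3 counts in CD4-negative libraries. These groups did not overlap, but Cox7a1 was below the filter and so was not among the 85 tested members. In fits that kept it, its unadjusted p was 0.107 with no filter on low counts (edgeR) and 0.0702 by DESeq2. Without CD4-negative replicate 3 the edgeR p was 0.0474 (adjusted p = 0.789). Its level stayed under 1 CPM, and Cox7a2, the isoform of most tissues, stood at 61.8 ± 8.60 CPM in CD4-positive cells and 65.5 ± 16.6 CPM in CD4-negative cells (SD, n = 3 each). Cox7a2l, which helps to join complexes into supercomplexes, was the most abundant gene of that family, at 83.5% of its signal per kilobase. It had 702, 345 and 405 CPM in CD4-positive cells and 411, 362 and 952 CPM in CD4-negative cells, with the same 2 libraries high. The log2 difference of -0.25 (SE 0.43) was 0.33 without CD4-negative replicate 3.

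Of the other complex IV subunits, Cox5a had 80.7, 68.5 and 84.0 CPM in CD4-positive cells and 67.3, 72.6 and 87.2 CPM in CD4-negative cells. Cox5b, whose log2 difference of -0.16 (SE 0.24) was the most negative of the structural genes of this complex, had 130.1, 91.5 and 109 CPM in CD4-positive cells against 101, 106 and 164 CPM in CD4-negative cells. Both genes overlapped between the groups. Over the 11 structural genes the median was -0.088, and 9 of them lay below 0.

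Complex V, the ATP synthase, held the most abundant transcripts by summed level. The F1 subunits that form its catalytic head were even across libraries: Atp5a1 had 775, 719 and 845 CPM in CD4-positive cells and 762, 711 and 848 CPM in CD4-negative cells. Atp5b had 857, 723 and 840.4 CPM in CD4-positive cells against 762, 701 and 909 CPM in CD4-negative cells. The central stalk subunit Atp5c1 averaged 187 ± 16.1 CPM in CD4-positive cells and 201 ± 20.3 CPM in CD4-negative cells (SD, n = 3 each). By contrast Atp5e, the small epsilon subunit of the same stalk, had 162, 67.9 and 73.1 CPM in CD4-positive cells and 87.3, 75.9 and 225 CPM in CD4-negative cells. Thus 1 library in each group stood more than 1 log2 unit above the mean of the others, and the group difference was -0.36 (SE 0.50), and 0.31 without CD4-negative replicate 3.

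The rotor ring of ATP synthase is built from identical copies of subunit c, which comes from 3 genes with near-identical mature products. Per kilobase, Atp5g2 and Atp5g3 gave 48.3% and 48.7% of their summed signal and Atp5g1 gave 3.07%. The low share of Atp5g1 depends on its principal transcript of 4715 bases, against 731 for Atp5g2 and 723 for Atp5g3. Atp5g3 had 159, 123 and 143 CPM in CD4-positive cells and 113, 110.4 and 190.2 CPM in CD4-negative cells. Atp5g2 averaged 140.0 ± 17.2 CPM in CD4-positive cells and 140.5 ± 14.1 CPM in CD4-negative cells, and Atp5g1 averaged 55.3 ± 12.3 CPM in CD4-positive cells and 59.7 ± 6.28 CPM in CD4-negative cells (SD, n = 3 each). Atp5g1 and Atp5g2 counts were fractional in all 6 libraries, so their split is uncertain. Of the 15 structural genes of complex V, 11 lay below 0, with a median of -0.10.

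Of the 7 complex I assembly factors, 6 lay below 0. Ndufaf3 was the single tested member whose groups did not overlap: it had 9.95, 9.83 and 10.1 CPM in CD4-positive cells and 11.1, 10.5 and 13.4 CPM in CD4-negative cells. Its log2 difference of -0.23 (SE 0.18) had an unadjusted p of 0.236 by edgeR. Ndufaf4 was the assembly factor above 0, at 19.7, 14.9 and 18.05 CPM in CD4-positive cells against 15.7, 14.5 and 17.3 CPM in CD4-negative cells, a difference of 0.15 (SE 0.17). Ndufaf6 had 3.41, 2.45 and 2.33 CPM in CD4-positive cells against 2.93, 2.15 and 6.21 CPM in CD4-negative cells, the last of these being the highest of the 6 libraries. Atp5s, the ATP synthase coupling factor B, was the lowest tested member at 1.17 ± 0.196 CPM in CD4-positive cells and 1.21 ± 0.226 CPM in CD4-negative cells (SD, n = 3 each). Atp5l2-ps had at most 1 count in a library.

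Summed over its structural genes, each complex overlapped between the groups. Complex I summed to 2358, 1695 and 1895 CPM in CD4-positive cells and 1881, 1750 and 3016 CPM in CD4-negative cells, a log2 ratio of group means of -0.16. Complex V summed to 3703, 2908 and 3380 CPM in CD4-positive cells against 3170, 2934 and 4350.3 CPM in CD4-negative cells, a ratio of -0.065 on the log2 scale. In both complexes the highest library of each group was CD4-positive replicate 1 and CD4-negative replicate 3. Complex III summed to 987, 731 and 867 CPM in CD4-positive cells against 827, 762 and 1231 CPM in CD4-negative cells (log2 ratio -0.13). Complex IV summed to 1300.1, 1115 and 1336 CPM in CD4-positive cells against 1228, 1199.7 and 1521 CPM in CD4-negative cells (log2 ratio -0.074), and complex II to 534, 469 and 523 CPM in CD4-positive cells against 472, 458 and 577 CPM in CD4-negative cells (log2 ratio 0.017). Without the 2 low-mitochondrial libraries the log2 ratios lay between -0.016 for complex I and 0.13 for cytochrome c.

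**Figure D3:**
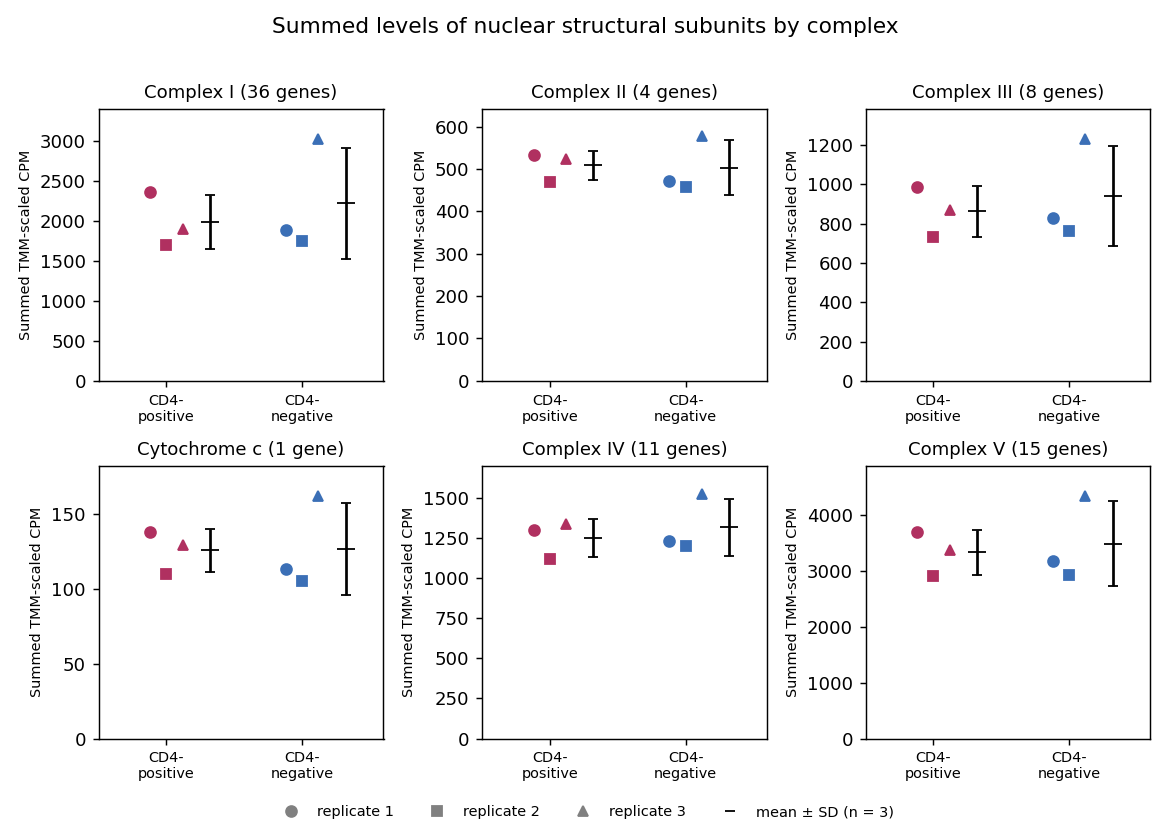
Summed TMM-scaled CPM of the structural genes of each complex in every library (symbols by replicate number), with the mean and SD of each group of 3 libraries beside them. CD4-negative replicate 3 is the highest point in every panel, and the groups overlap in all of them.

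Shares of the structural sum overlapped between the groups for each of complexes I to V. Complex I made up 26.1%, 24.1% and 23.3% of the structural sum in CD4-positive and 24.5%, 24.3% and 27.8% in CD4-negative cells, highest in CD4-positive replicate 1 and CD4-negative replicate 3. Complex IV made up 14.4%, 15.9% and 16.4% in CD4-positive against 16.0%, 16.6% and 14.0% in CD4-negative cells, lowest in the same pair of libraries. Complex V made up 41.3% ± 0.264 in CD4-positive and 40.7% ± 0.574 in CD4-negative cells (SD, n = 3 each). Complex II made up 6.34% ± 0.386 in CD4-positive and 5.94% ± 0.5496 in CD4-negative cells, and complex III made up 10.7% ± 0.2698 in CD4-positive and 10.9% ± 0.402 in CD4-negative cells (SD, n = 3 each). Cytochrome c, a single gene, made up 1.53%, 1.57% and 1.59% in CD4-positive against 1.48%, 1.46% and 1.49% in CD4-negative cells, the one share of the 6 without overlap. Counts of this gene, Cycs, were fractional in 5 of the 6 libraries, so its level is uncertain. The shares were not tested.

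The larger variation lay between libraries of the same group. CD4-positive replicate 1 exceeded the mean of the other 2 CD4-positive libraries by a median of 0.30 log2 units over the 85 tested members, against 0.0023 over all tested genes. CD4-negative replicate 3 exceeded the mean of its other 2 libraries by a median of 0.57, against -0.039 over all tested genes. These libraries are also those with a low share of mitochondrial counts, and they share neither a group, a replicate number nor a library naming scheme. CD4-negative replicate 3 was the highest library for 69 of 85 members, against 29.1% of all tested genes. The pair were the 2 highest libraries for 60 of 85 members, against 21.4% of all tested genes. Both deviations passed 0.5 log2 units for 25 of 85 members (29.4%), against 7.86% of all tested genes.

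Across the 85 members the deviations of these libraries correlated with a Pearson r of 0.90 (Spearman rho 0.88), against 0.25 (0.40) over all 12760 tested genes. Genes of a library share its depth and preparation, so these values describe the libraries only. For comparison, the difference of CD4-positive replicates 3 and 2 and that of CD4-negative replicates 2 and 1 correlated at 0.17 across the members. Besides Atp5e and Ndufb7, the genes farthest up in both were Ndufs6, the accessory subunits Ndufa2 and Ndufa5, the assembly factor Ndufaf1 and Cox7a2l. Ndufa2 had 68.9, 35.1 and 37.3 CPM in CD4-positive cells and 39.5, 34.5 and 96.5 CPM in CD4-negative cells. Atp5h, subunit d of the peripheral stalk, had 313, 185 and 226 CPM in CD4-positive cells against 231, 204 and 459 CPM in CD4-negative cells.

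Not every subunit followed. For 10 of 85 members both libraries lay below the others of their groups (35.4% of all tested genes), among them Ndufb4, Sdhc, Sdhd, Uqcrc2, Uqcrfs1, Cox6a1, Cox7c, Cox8a and Atp5j. In complex I, 13 of 36 structural genes passed 0.5 log2 units in both and 2 lay below 0 in both. In complex IV, 0 of 11 passed 0.5 in both and 3 lay below 0 in both, and complex II had 0 of 4 and 2 of 4. Subunits of the same complex therefore lay apart within these libraries: Sdha was 0.30 and 0.59 log2 units above the other libraries where Sdhc was 0.71 and 0.57 below them. Over the members the mean of both deviations had a Spearman correlation of -0.20 with transcript length and 0.16 with transcript GC content, against -0.34 and 0.17 over 11322 tested genes with a principal transcript. What set these libraries apart was not tested.

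**Figure D4:**
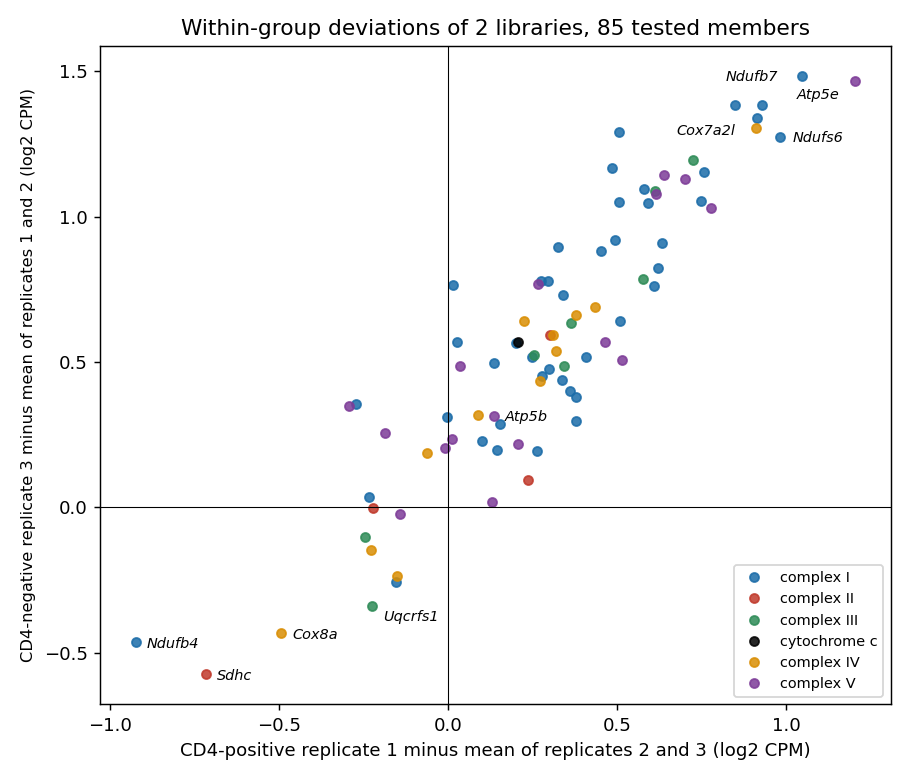
For each of the 85 tested members, the deviation of CD4-positive replicate 1 from its group's other libraries (x axis, log2 CPM) against the deviation of CD4-negative replicate 3 from its group's other libraries (y axis, log2 CPM), coloured by complex. Most points lie in the upper right, up to Atp5e and Ndufb7, while Ndufb4, Sdhc and Cox8a lie at the lower left.

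Most mitochondrially encoded genes of the pathway lay the other way in the same libraries. Of 13, 9 were below the other libraries of the group in both, and 2 were above them in both. The other 2 were below in CD4-positive replicate 1 and above in CD4-negative replicate 3. All 13 summed to 12450.3, 49221 and 48888 CPM in CD4-positive cells and 33293, 49040.5 and 12879 CPM in CD4-negative cells. None of the 13 passed the test by edgeR, and none had an unadjusted p under 0.05. The sum of the 75 nuclear structural genes was 0.725, 0.143 and 0.166 times the mitochondrial sum in CD4-positive and 0.231, 0.147 and 0.843 times in CD4-negative cells. Thus the ratio was several-fold higher in CD4-positive replicate 1 and CD4-negative replicate 3 than in the other libraries, and the groups overlapped. Both libraries already stood apart by their low share of mitochondrial counts. Their low mitochondrial sums and high ratios largely restate that share.

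Counts assigned to individual mitochondrial genes differed in size and direction. How reads were divided among these genes was not tested, so the values need not be levels of separate mRNAs. mt-Nd5, a proton-pumping subunit of complex I, had 220.3, 4304 and 3206 CPM in CD4-positive cells and 2604, 3688 and 148 CPM in CD4-negative cells. mt-Atp8, an ATP synthase subunit, had 35.0, 1193 and 1185 CPM in CD4-positive cells against 689, 973 and 21.1 CPM in CD4-negative cells. By contrast mt-Co3, a core subunit of complex IV, had 832, 298 and 369 CPM in CD4-positive cells and 194, 285 and 445 CPM in CD4-negative cells, with CD4-positive replicate 1 the highest. mt-Nd3 likewise had 44.5, 21.1 and 17.3 CPM in CD4-positive cells against 21.6, 35.0 and 58.5 CPM in CD4-negative cells. mt-Co2, a core subunit of the same complex, had 378, 441 and 609 CPM in CD4-positive cells and 295, 596 and 663 CPM in CD4-negative cells. mt-Atp6, an ATP synthase subunit, had 187, 333 and 701 CPM in CD4-positive cells against 314, 357 and 385 CPM in CD4-negative cells. For both genes CD4-positive replicate 1 was the lowest and CD4-negative replicate 3 the highest library of its group.

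**Figure D5:**
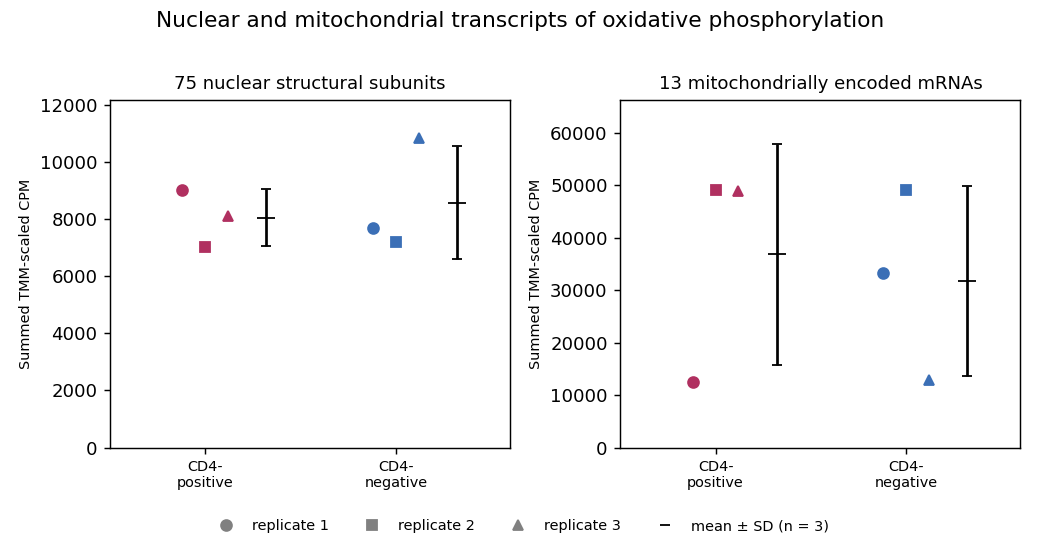
Summed TMM-scaled CPM of the 75 nuclear structural genes (left) and of the 13 mitochondrially encoded genes (right, titled mRNAs) in each library. Symbols stand for replicate numbers, with the mean and SD of each group of 3 libraries. CD4-positive replicate 1 and CD4-negative replicate 3 are the highest of their groups on the left and the lowest on the right.

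The promoters of the members were read for motifs of factors known to act on respiratory genes. Windows from 250 bases before to 50 bases after the RefSeq start (GRCm38.p6) were found for 77 of 94 members. The core of the site of nuclear respiratory factor 1 (NRF1), searched on both strands as CGCANGCG with N any base, was present for 30 of 77 members (39.0%), against 9.22% of 27025 genes with a window and 20.2% of the 9437 tested genes with a window. Its strict form CGCATGCG, contained in it, was present for 12 of 77 (15.6%, against 2.07% of genes and 4.52% of tested genes). The YY1 motif AAGATGGCG was present for 8 (10.4%, against 1.64% of genes and 3.79% of tested genes), the ETS motif CCGGAAGT for 5 (6.49%, against 4.31% of genes and 9.79% of tested genes), and the SP1 motif GGGCGG for 35 (45.5%, against 38.2% of genes and 68.8% of tested genes). Each is a match of letters and not evidence of binding.

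The 2 library deviations were set beside each motif, as a description. Carriers of CGCANGCG had median deviations of 0.37 in CD4-positive replicate 1 and 0.57 in CD4-negative replicate 3 over 30 tested members, against 0.28 and 0.54 over the 43 tested members with a window but no match. The 5 carriers of the ETS motif had higher medians, at 0.62 and 1.09, against 0.30 and 0.53 over the 68 others. These 5 were Ndufs3, Uqcr11, Uqcrh, Atp5h and Cox8a, and Cox8a lay the other way, at -0.49 and -0.43. Whether the ETS motif bears on levels was not tested. The 8 carriers of the YY1 motif lay at 0.32 and 0.78, against 0.30 and 0.54 over the 65 others, and the 33 tested carriers of the SP1 motif at 0.25 and 0.40, against 0.35 and 0.64 over the 40 others. The stretches below are from 6 carriers whose motif lies upstream of the start in at least 60 bases that overlap no GENCODE M21 exon. They include Atp5h, high in both libraries, and Ndufb4, low in both. Capitals mark the motif, and each stretch is written on the strand of the gene, 5′ to 3′. They lie at chr11:115420000-115420109 (minus) for Atp5h, chr16:37654499-37654608 (minus) for Ndufb4, chr17:56717686-56717761 (plus) for Ndufa11, chr4:123718224-123718333 (minus) for Ndufs5, chr4:24897921-24898030 (plus) for Ndufaf4 and chr5:115349015-115349124 (minus) for Cox6a1.
Atp5h: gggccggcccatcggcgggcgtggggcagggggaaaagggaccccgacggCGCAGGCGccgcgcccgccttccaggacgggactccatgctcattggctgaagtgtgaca
Ndufb4: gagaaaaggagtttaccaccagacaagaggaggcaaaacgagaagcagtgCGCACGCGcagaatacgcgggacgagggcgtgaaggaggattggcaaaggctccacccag
Ndufa11: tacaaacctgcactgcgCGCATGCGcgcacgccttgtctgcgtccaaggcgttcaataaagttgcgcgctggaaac
Ndufs5: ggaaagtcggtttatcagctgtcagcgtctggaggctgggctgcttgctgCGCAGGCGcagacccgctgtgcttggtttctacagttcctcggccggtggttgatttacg
Ndufaf4: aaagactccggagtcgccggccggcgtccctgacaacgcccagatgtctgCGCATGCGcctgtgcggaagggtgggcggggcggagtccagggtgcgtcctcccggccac
Cox6a1: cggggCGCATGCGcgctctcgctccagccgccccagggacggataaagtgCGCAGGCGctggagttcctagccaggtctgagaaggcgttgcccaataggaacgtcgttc

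Atp5h and Ndufb4 carry the motif 140 and 190 bases before their starts and lay on opposite sides of the other libraries of their groups. They were picked as examples, and whether the motif bears on levels was not tested. Counts of both were fractional in all 6 libraries. Cox6a1 carries it at 2 places in the stretch shown and had 115 CPM in CD4-positive replicate 1, equal to replicate 2 and below replicate 3. Nrf1 itself had 53.2, 49.1 and 45.7 CPM in CD4-positive cells and 51.0, 49.8 and 51.3 CPM in CD4-negative cells. Gabpa, the ETS-family factor of respiratory genes, had 60.8, 98.5 and 87.7 CPM in CD4-positive cells against 93.8, 87.4 and 55.8 CPM in CD4-negative cells. Gabpa was thus low in the pair of libraries in which most members were high. Gabpb2 was low in both as well, while Gabpb1 and Yy1 were not. Deviations in CD4-positive replicate 1 and CD4-negative replicate 3 were 0.058 and 0.54 log2 units for Gabpb1, and -0.66 and -1.17 for Gabpb2. For Yy1 they were 0.24 and -0.21. Whether the level of any of these factors bears on the members was not tested.

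Genes of the pathway outside the name rule did not pass either. Of 45 tested assembly factors and related proteins beyond Ndufaf1 to Ndufaf7, 0 passed by edgeR in either direction. Their median log2 difference was -0.068, and Usmg5, Atpif1 and Taco1 were among the related proteins. The gene nearest to the threshold was Nubpl, an iron-sulfur carrier for complex I. It had 3.39, 3.32 and 2.43 CPM in CD4-positive cells and 4.07, 3.98 and 4.54 CPM in CD4-negative cells (unadjusted p = 0.0971, adjusted p = 0.99999 by edgeR), without overlap. Of 14 citric acid cycle genes 0 passed (median -0.0036), and Cs, citrate synthase, had 161, 184 and 203 CPM in CD4-positive cells against 174, 175 and 145 CPM in CD4-negative cells. Of 19 tested regulators and factors of mitochondrial DNA expression 0 passed (median -0.012), the nearest being Tfb1m, a mitochondrial rRNA methyltransferase, at 5.30 ± 0.787 CPM in CD4-positive cells and 6.88 ± 1.05 CPM in CD4-negative cells (SD, n = 3 each). Tfam, which packages mitochondrial DNA and activates its transcription, averaged 65.0 ± 3.86 CPM in CD4-positive cells and 63.3 ± 8.67 CPM in CD4-negative cells (SD, n = 3 each). Of 10 carriers and porins 0 passed (median 0.0087), and Slc25a4, an ADP/ATP carrier, had 136, 112 and 112 CPM in CD4-positive cells against 134, 126 and 172 CPM in CD4-negative cells. None of these 4 lists had a gene with an unadjusted p under 0.05.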

How the data were processed

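Polyadenylated RNA of CD4-positive and CD4-negative NKT1 cells was sequenced in paired ends after TruSeq stranded library preparation, per the labels' protocols. STAR, Picard, RSEM and the build mm10 are named, without versions or roles, per the submitters' processing notes. Neither annotation nor strand setting is stated there. The deposited values are the authors' estimated counts for each gene of 6 libraries, without normalisation, and were rounded to whole numbers. Identifiers were matched to GENCODE M21 (GRCm38), which held 47224 of 47643.

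Genes were filtered by filterByExpr (12760 kept) and tested, over the whole table, with edgeR 4.0.16 in R 4.3.3: TMM scaling, robust quasi-likelihood F test on group, 2-sided, Benjamini-Hochberg adjustment at 0.05. The test was first run on simulated counts with known changes. CPM are scaled by TMM, and library deviations are on log2(CPM + 0.05). Levels per kilobase use the APPRIS principal transcript, the longest where several share the best rank. Totals of 40480463 to 53145848 counts mean that a count of 0 allows 3 counts, 0.0555 to 0.0783 CPM, counting error alone considered.

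Members, roles and gene lists were chosen with earlier results of these data known. Values were given for core subunits and isoform families, for the largest difference in each complex and direction at a mean of at least 5 CPM, and for non-overlapping groups; further members were named after their values were seen. One core subunit is not reported here by name. No score over members was tested. Alternatives were other scalings, filters and tools (DESeq2 1.42.0, limma-voom 3.58.1), a replicate block, the naming scheme as a batch term, a threshold of 0.10 and each library left out. Leaving out both low-mitochondrial libraries and lengths of principal transcripts were added after seeing the data.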

Additional observations from a re-analysis of the deposited data

How the results depend on the processing

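The count of members past the test was 0 under each alternative. Scalings were RLE, upper-quartile and unscaled library totals, and tools were DESeq2 (91 members tested) and limma-voom. Filters were none on low counts (91 tested) and a mean of at least 5 CPM (83 tested). A threshold of 0.10, replicates 1 and 2 only, a batch term for the library naming scheme and each library left out were also used. Without CD4-positive replicate 1, 2 or 3, or CD4-negative replicate 1 or 2, 0 of all tested genes passed. In those fits a count of 0 members therefore says nothing about the members. The other fits named here called, at 0.05, between 9 (replicates 1 and 2 only) and 162 (DESeq2) of all tested genes. The median log2 difference of the members lay between -0.13 and -0.093 under the other scalings, tools, filters and the batch term, and was 0.11 with replicates 1 and 2 only. With 1 library left out it ran from -0.22 (without CD4-negative replicate 2) to 0.11 (without CD4-negative replicate 3), and was -0.031 without CD4-positive replicate 2. With both low-mitochondrial libraries left out, chosen after seeing the data, it was -0.015. The SD between libraries of the member median was 0.27. Leaving out 1 of 3 libraries can hardly shift a difference by more than such an SD, so staying within it says little. The sign of the median turned with replicates 1 and 2 only and without CD4-negative replicate 3. The only member with an unadjusted p under 0.05 in any edgeR fit was Cox7a1 (0.0474 without CD4-negative replicate 3 and 0.0468 without both low-mitochondrial libraries).

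With the replicate number as a block, 0 members passed, their median was -0.10, and 0 of all 12760 genes passed, against 27 without it. Deviations of same-numbered libraries correlated at -0.080, 0.34 and 0.036 for numbers 1, 2 and 3. The labels state no pairing, and the main fit used none, but these correlations cannot exclude it. Library names match across the groups by replicate number. Y-linked counts stood at 466 and 523 in the replicate 1 libraries, against at most 1 in the others.

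The log2 ratio of summed complex I levels ran from -0.30 to 0.13 over the libraries left out, and was -0.17 per kilobase of the principal transcript and -0.13 as a mean of log2 CPM. For complexes II, III, IV and V and cytochrome c, the sign likewise turned with some library left out. Among 43 tested members followed singly, 714 of 729 values under alternatives moved by less than the SD of log2 CPM between libraries of a group. The other 15 moved further, and the smallest adjusted p was 0.598. Leaving out 1 of 3 libraries can hardly move a difference by that SD, so the count does not measure stability in those fits. Ndufs3, at -0.24 in the main fit and 0.25 without CD4-negative replicate 3, was among the 714. Depth does not limit the abundant subunits, but the isoforms with under 50 counts in all are at the counting limit.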
